A study of Mus musculus with 16 samples.

Results

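The comparison set white adipose tissue (WAT) of mice whose myeloid cells were to lack Gpr132 against WAT of floxed controls, both on vehicle. Libraries entered it by their sample labels: the 2 vehicle libraries labelled CKO against the 2 vehicle libraries labelled as controls, 4 of the 16 libraries of the series. The CKO group carries GPR132fl/fl with Lyz2_cre+/_, and the fl/fl group carries GPR132fl/fl without Cre. All animals were C57BL/6 mice on a high-fat diet (HFD). The other WAT groups, CKO on NOX_6_18 and fl/fl on NOX_6_18, have 2 libraries each, and NOX_6_18 is described as an antagonist. Neither age nor sex is used here, and nothing in the labels says whether a library holds 1 animal or a pool. Replicates are therefore separate samples of unstated origin. The p-values rest on the spread within groups, estimated over all 8 WAT libraries together, and that spread may be technical.

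Gpr132 is a G protein-coupled receptor of macrophages and lymphocytes that responds to lysophospholipid-related and oxidized fatty acid ligands and to acidification. Cre driven from the Lyz2 locus recombines floxed alleles in macrophages, monocytes and neutrophils, so that other cells of the fat keep the gene. In obese fat, macrophages around dying adipocytes take up lipid and degrade it in lysosomes, and the lipid-associated macrophage carries Trem2, Gpnmb, Cd9 and lysosomal enzymes as its signature. The labels speak both of RNA from macrophages and of snap-frozen tissue. The libraries held macrophage transcripts in every sample, with Lyz2 between 2022 and 3720.5 CPM (read counts scaled to a common library size, with TMM factors) over the 8 WAT libraries. They also held transcripts of stromal and endothelial cells, among them Col3a1 between 4399.8 and 9963 CPM and Pecam1 between 357 and 528 CPM. In such mixed RNA, fewer cells of a type and less RNA per cell cannot be told apart.

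The 4 libraries were deep, with 57898069 and 50734184 counts in CKO vehicle and 48348395 and 55203349 counts in fl/fl vehicle. A count of 0 therefore allowed at most 0.0518 to 0.062 CPM per library, for counting error only. The groups differed in how many genes they showed, 30687 and 30393 in CKO vehicle against 25039 and 25702 in fl/fl vehicle. The pair from fl/fl vehicle lay away from the other 6: on the first principal component of the 8 WAT libraries, with 72.2% of the variance, the CKO vehicle libraries lay at 75 and 72.2, the NOX_6_18 libraries between 74.2 and 75.5, and the fl/fl vehicle libraries at −226.5 and −219.8. On the second component, with 6.3% of the variance, the fl/fl vehicle libraries lay at 74.8 and −76.5 and the other 6 between −4.7 and 11.8. The fl/fl vehicle pair thus differed more between its libraries there than the other groups, while the fit shares its spread estimate over all 8. Every vehicle difference below rests on the 2 fl/fl vehicle libraries. Beside it stands the same genotype difference on NOX_6_18, which uses none of the 4 vehicle libraries.

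Gpr132 itself had 35.6 and 64.6 CPM in CKO vehicle, against 72.5 and 69.7 CPM in fl/fl vehicle. Both CKO libraries were below both fl/fl libraries, but the CKO libraries differed from each other more than replicate 2 differed from the controls. The log2 fold change was −0.51 ± 0.22 (SE) and did not pass (edgeR's quasi-likelihood test, adjusted p = 0.115). The call turned on single libraries, at −0.99 with CKO vehicle replicate 2 left out (adjusted p = 0.000351) and −0.14 with CKO vehicle replicate 1 left out (adjusted p = 0.323). On NOX_6_18 the levels were 56.5 and 59.1 CPM in CKO and 60.3 and 60.1 CPM in fl/fl, a log2 fold change of −0.06 (adjusted p = 1). The gene lies at chr12:112850873-112868228 of GRCm38 on the minus strand. The counts cover the whole gene, and which exons are floxed is not given in the sources used here, so the genotype is unchecked by these counts and "CKO" stands for libraries labelled CKO. Lyz2, the locus that carries Cre, had 2228 and 2054 CPM in CKO vehicle and 3720.5 and 3353 CPM in fl/fl vehicle, a log2 fold change of −0.72 ± 0.06 (adjusted p = 3e-05). On NOX_6_18 Lyz2 had 2040.0 and 2022 CPM in CKO and 2038 and 2026 CPM in fl/fl.

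Of 25871 genes tested on vehicle, 9529 passed an adjusted p of 0.05, which is 36.8%: 6313 were higher in CKO (24.4%) and 3216 lower (12.4%). The rises were large and the falls small. 5029 genes were at least 2-fold higher (19.4%) and 261 at least 2-fold lower (1.01%). The direction went with the level of the gene. Among the 4199 genes under 0.1 CPM in fl/fl vehicle, 55.9% were called higher and none lower. Among the 109 genes at 1000 CPM or more there, 9.17% were called higher and 69.7% lower. Genes between 100 and 1000 CPM were called higher in 4.1% and lower in 52.3% of cases, and genes between 10 and 100 CPM higher in 12.3% and lower in 21.5%. A list of abundant genes with a like share of its members lower does not stand apart from genes of its level. The split by level used the fl/fl vehicle libraries themselves, so it describes the comparison and is no independent result. Long non-coding genes were called higher in 31.7% and lower in 1.48% of cases, and protein-coding genes higher in 24.6% and lower in 17.1%. Genes under 1 CPM in fl/fl vehicle took 1.91 and 1.88% of all counts in CKO vehicle, against 0.239 and 0.245% in fl/fl vehicle. The balance of rises and falls depends on scaling: with library totals only, 7360 were higher and 1455 lower, and with a GC and length trend removed 6254 were higher and 5784 lower. The median of the per-gene shifts in log2 fold change was 0.17 and −0.18. The all-gene median of 0.10 became 0.26 and −0.01. The trend removal also moved single genes. Of 90 called genes described by name, 58 stayed within 1.5 times of their log2 fold change, 16 became larger in size by more than that, 12 smaller, and 4 turned sign. Leaving out CKO vehicle replicate 1 left 2059 lower genes and leaving out CKO vehicle replicate 2 left 1985.

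**Figure D1:**
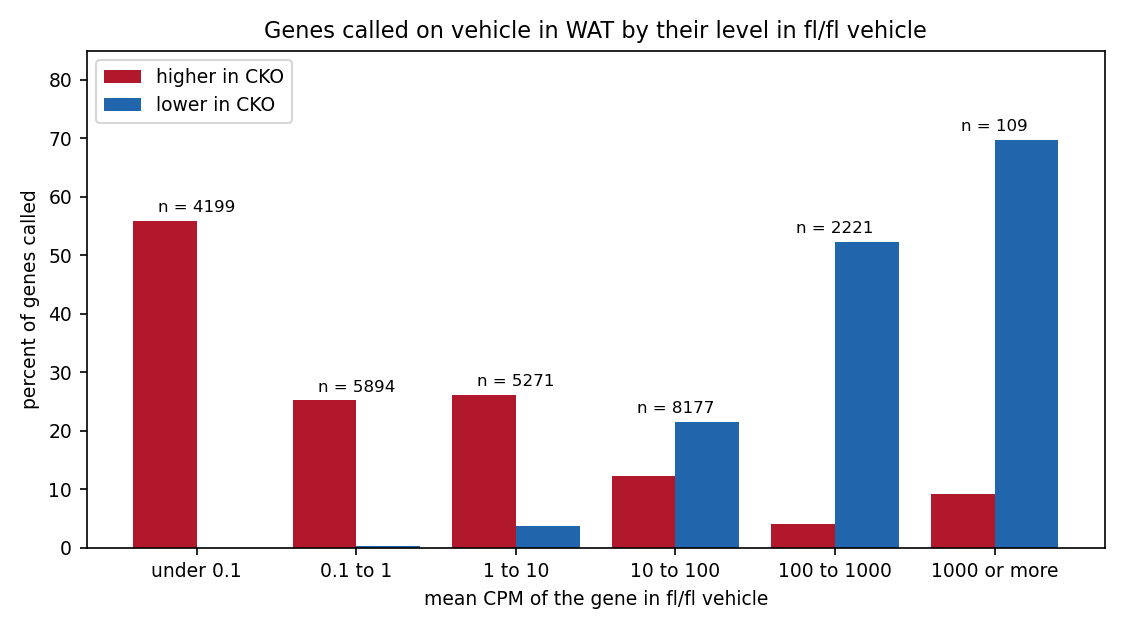
Percent of genes called higher (red) or lower (blue) in CKO vehicle against fl/fl vehicle in WAT, y axis, in 6 classes of mean CPM in fl/fl vehicle, x axis, with the number of genes tested above each pair of bars. The share called higher is 55.9% in the lowest class and the share called lower is 69.7% in the highest.

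The lipid-associated macrophage signature was lower in CKO vehicle. Of its 20 members, 19 fell and none rose, with a median log2 fold change of −1.11 beside 0.10 over all genes tested. Gpnmb, a lysosome-linked glycoprotein of lipid-laden macrophages, had 467 and 456 CPM in CKO vehicle, against 1505 and 1473 CPM in fl/fl vehicle. Its groups lay far apart, and its log2 fold change was −1.69 ± 0.06 (adjusted p = 2.61e-07). Trem2, the lipid-sensing receptor that marks these cells, had 74.2 and 78.7 CPM in CKO vehicle and 183 and 167 CPM in fl/fl vehicle, a change of −1.19 ± 0.08 (adjusted p = 1.25e-05). Lpl, the lipase that frees fatty acids from lipoproteins, had 949 and 874 CPM in CKO vehicle against 2492 and 2456 CPM in fl/fl vehicle (−1.44 ± 0.07). Fabp5, a fatty acid carrier, had 94.6 and 92.8 CPM in CKO vehicle against 219 and 199 CPM in fl/fl vehicle (−1.16 ± 0.07). Summed over the list, CKO vehicle had 12088 and 11589 CPM and fl/fl vehicle 22794 and 22462 CPM. The member not called was Apoe, at 0.13 (adjusted p = 0.428).

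General macrophage genes fell by less. Of 20 pan-macrophage genes, 16 fell and 2 rose, with a median of −0.46 (−0.83 once GC and length trends were removed, −0.29 with library totals only). The share of 16 in 20 was above the 69.7% lower among all genes from 1000 CPM, but with library totals only 12 fell and 3 rose. Adgre1, a surface antigen of mature macrophages, had 362 and 372 CPM in CKO vehicle and 629 and 608 CPM in fl/fl vehicle (−0.75 ± 0.05, adjusted p = 1.1e-05). Cd68 had 374 and 367 CPM in CKO vehicle and 695 and 612 CPM in fl/fl vehicle (−0.82 ± 0.07). Spi1, the myeloid transcription factor PU.1, was at −0.75 ± 0.08 and was called. The resident and perivascular macrophage list was mixed, with 7 of 16 members lower and 1 higher. That share lower lay between the 21.5% of all genes at 10 to 100 CPM and the 52.3% at 100 to 1000 CPM. Vsig4, a complement receptor of resident macrophages, had 8.62 and 8.10 CPM in CKO vehicle and 18.2 and 16.9 CPM in fl/fl vehicle (−1.07 ± 0.14, adjusted p = 0.00053). Lyve1 was the member that rose, with 365 and 368 CPM in CKO vehicle and 313 and 306 CPM in fl/fl vehicle (0.24 ± 0.05, adjusted p = 0.00641), but with the GC and length trend removed it lay at −0.27, and the list then had 15 members lower. The 7 falls became 3 without CKO vehicle replicate 2 and 2 with library totals only.

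**Figure D2:**
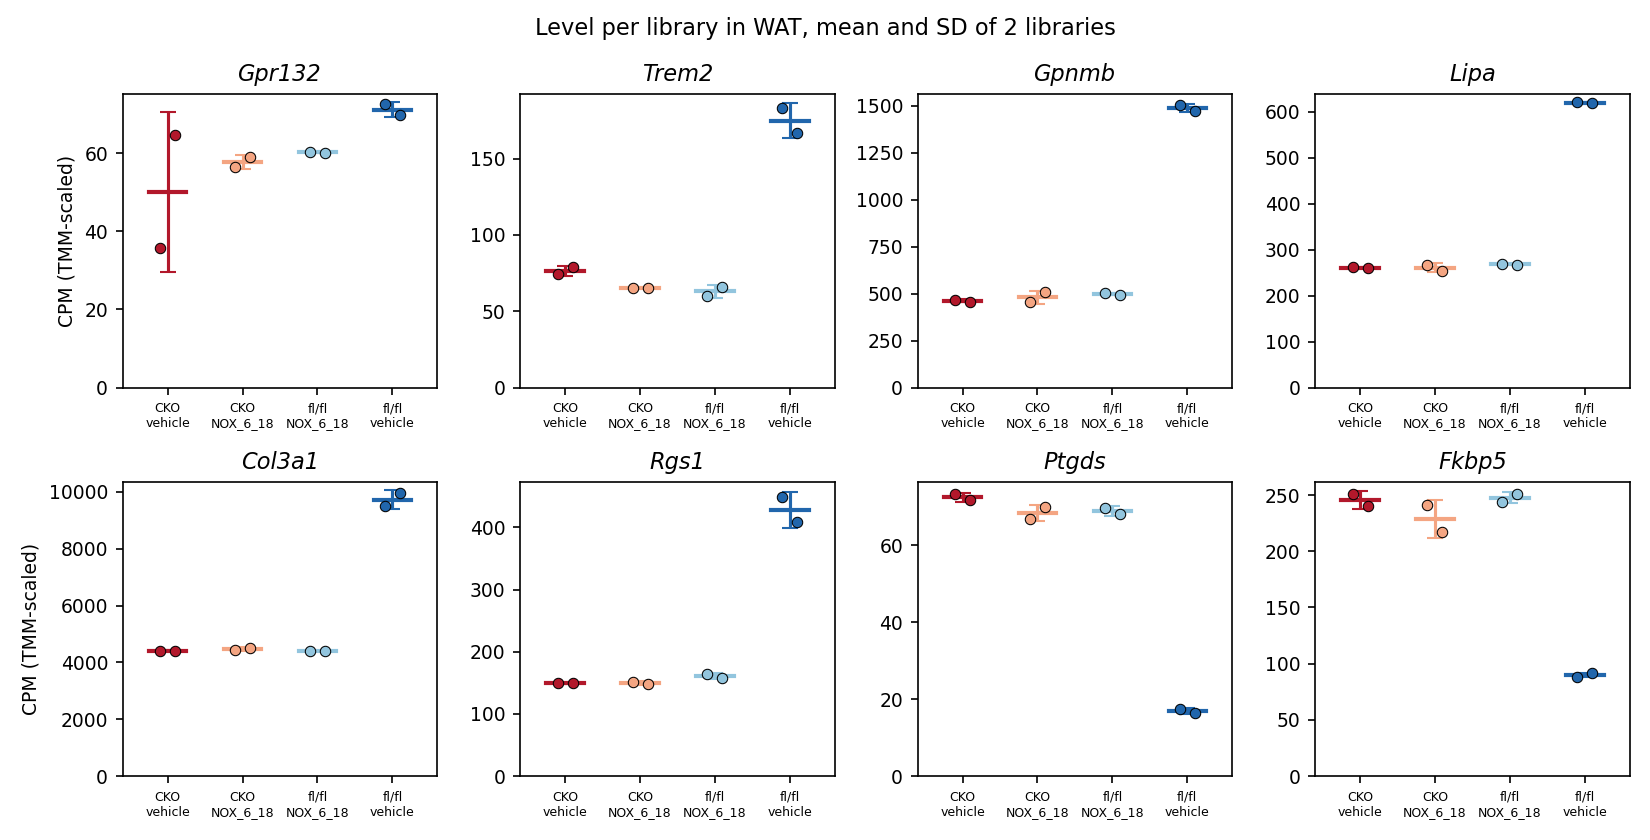
CPM of 8 genes, y axes from 0, in each WAT library: points are the 2 libraries of a group, bars the mean and SD, and groups run from CKO vehicle on the left to fl/fl vehicle on the right. For Trem2, Gpnmb, Lipa, Col3a1 and Rgs1 the fl/fl vehicle libraries are the highest and for Ptgds and Fkbp5 the lowest, while the 6 other libraries lie together.

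Lysosomal genes were lower almost throughout. Lysosomes digest cargo with acid hydrolases, and the proton pump (v-ATPase) of their membrane acidifies them. Of 31 lysosomal hydrolases, 29 fell and none rose, and of 26 genes of the lysosomal membrane and v-ATPase, 25 fell and none rose. The medians were −0.56 and −0.53, with ranges of −1.50 to −0.13 and −1.58 to −0.21. Summed hydrolase levels were 15102 and 14565 CPM in CKO vehicle and 26250.3 and 25035 CPM in fl/fl vehicle. On NOX_6_18 no gene of either list was called, and the hydrolases lay between −0.13 and 0.09.

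Ctsk, the collagen-degrading cathepsin K, fell most among the hydrolases, with 112 and 108 CPM in CKO vehicle and 329 and 292 CPM in fl/fl vehicle (−1.50 ± 0.07, adjusted p = 1.69e-06). Lipa, the lysosomal acid lipase that hydrolyses cholesteryl esters and triglycerides, had 261 and 259.7 CPM in CKO vehicle and 620.2 and 618 CPM in fl/fl vehicle (−1.25 ± 0.05, adjusted p = 6.69e-07). Psap, the precursor of the saposins that help lipid hydrolases, had 3826 and 3725 CPM in CKO vehicle and 6871 and 6629.8 CPM in fl/fl vehicle (−0.84 ± 0.03, adjusted p = 5.94e-07). Ctsb and Ctsd were lower as well (−0.92 ± 0.04 and −1.09 ± 0.05), but exons of both overlap another gene, so their counts are uncertain.

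In the membrane group, Atp6v0d2, a v-ATPase subunit typical of osteoclasts and lipid-laden macrophages, fell most, with 66.4 and 60.3 CPM in CKO vehicle and 199.6 and 178 CPM in fl/fl vehicle (−1.58 ± 0.09, adjusted p = 3.05e-06). Atp6v1a, the catalytic subunit of the pump, had 183 and 191 CPM in CKO vehicle and 313 and 329 CPM in fl/fl vehicle (−0.78 ± 0.06). Lamp1, the abundant membrane glycoprotein, had 923 and 864 CPM in CKO vehicle and 1222 and 1150.1 CPM in fl/fl vehicle (−0.41 ± 0.05), with exons that overlap Grtp1. Of 14 regulators of lysosomes and autophagy, 6 fell and none rose. That share lay between the 21.5% lower among all genes at 10 to 100 CPM and the 52.3% at 100 to 1000 CPM. Only 2 regulators fell with library totals only, and 4 fell and 1 rose once GC and length trends were removed. Mitf, a transcription factor of the TFEB family that drives lysosomal genes, had 39.0 and 44.4 CPM in CKO vehicle and 72.3 and 74.0 CPM in fl/fl vehicle (−0.81 ± 0.11, adjusted p = 0.00067). Tfeb itself had 22.7 and 25.6 CPM in CKO vehicle and 42.1 and 31.9 CPM in fl/fl vehicle, and its change of −0.62 ± 0.24 did not pass (adjusted p = 0.0816; 0.0241 with DESeq2).

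**Figure D3:**
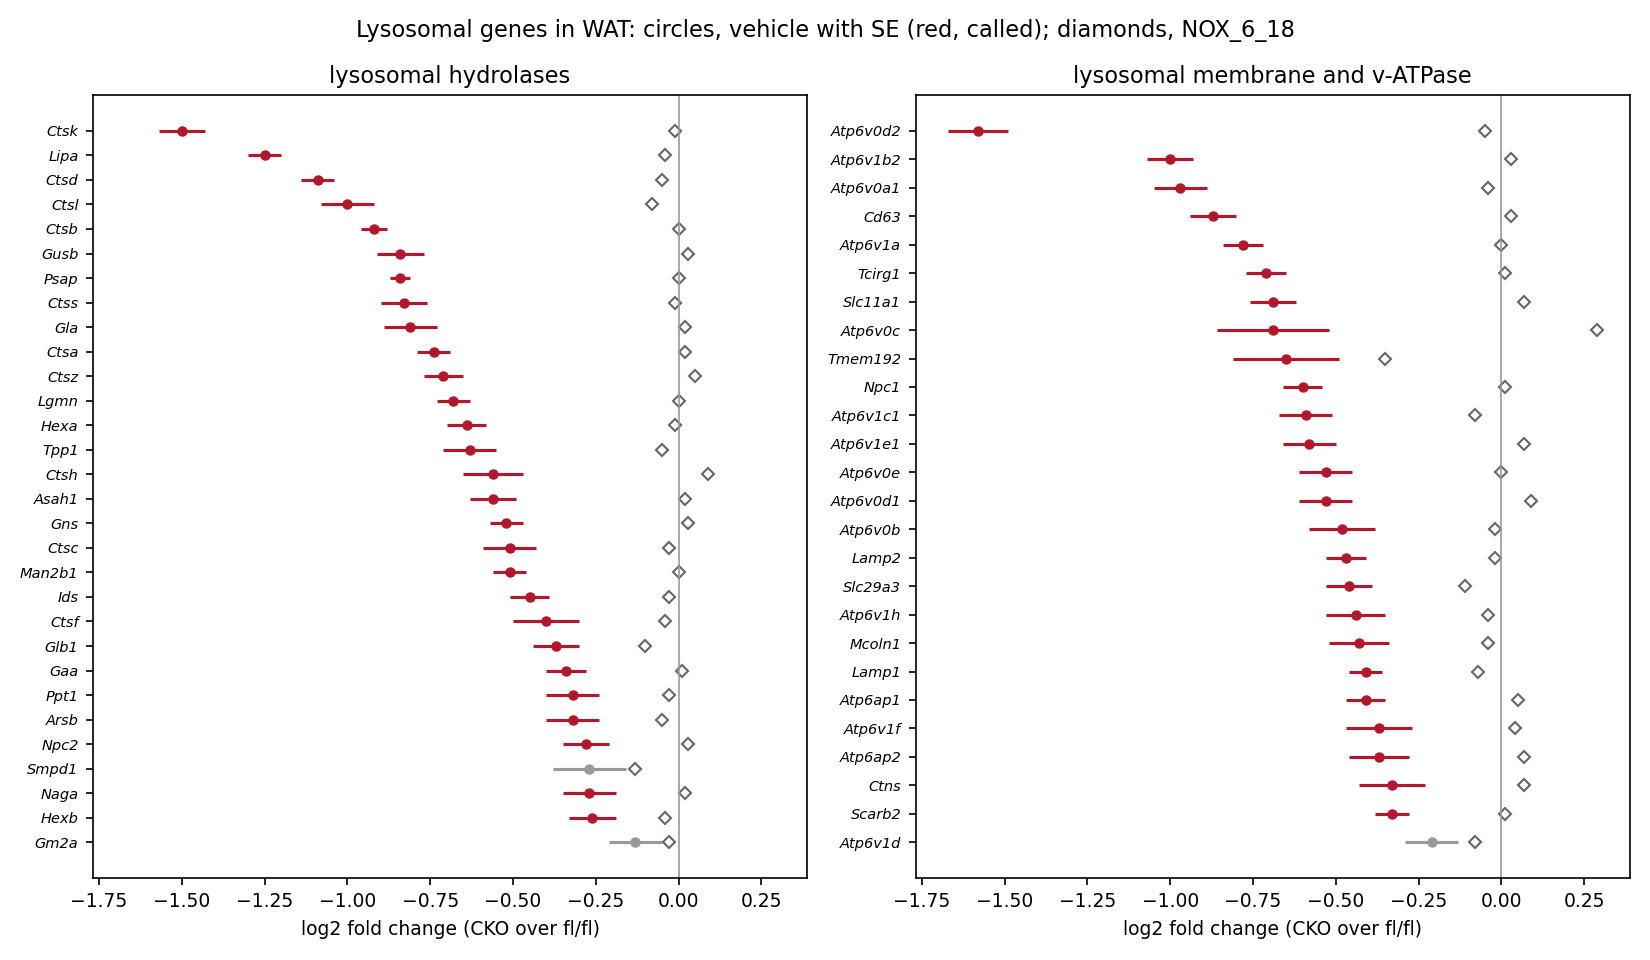
Log2 fold change of CKO over fl/fl, x axis, for lysosomal hydrolases (left) and genes of the lysosomal membrane and v-ATPase (right) in WAT: circles give the vehicle comparison with its SE, red where called, and diamonds the NOX_6_18 comparison. Circles run from −1.58 to −0.13, all below 0, and diamonds scatter around 0.

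TFEB, TFE3 and MITF bind an E-box with the core CACGTG, in its extended form TCACGTGA, which holds the core. The promoters of the lysosomal genes were read from RefSeq on GRCm38.p6, in windows of 300 bases that end 50 bases past the gene start, and both strands were searched. Of 31 hydrolases, 24 had a promoter in the table, 8 of them with CACGTG (33.3%) and 3 with TCACGTGA (12.5%). Of 26 membrane and v-ATPase genes, 21 had one, 6 with CACGTG (28.6%) and 4 with TCACGTGA (19%). Over all 27025 genes with a promoter the shares were 8.09 and 1.12%. A match describes these letters and is not evidence of binding. Shown are called members with the element, Ctsd at chr7:142387778-142388077 (minus strand), Atp6v1a at chr16:44139210-44139509 (minus) and Lamp1 at chr8:13158911-13159210 (plus), and Lipa, a called member without it, at chr19:34527425-34527724 (minus). Capitals mark TCACGTGA in the first pair and CACGTG in Lamp1, which holds it 4 times.
Ctsd: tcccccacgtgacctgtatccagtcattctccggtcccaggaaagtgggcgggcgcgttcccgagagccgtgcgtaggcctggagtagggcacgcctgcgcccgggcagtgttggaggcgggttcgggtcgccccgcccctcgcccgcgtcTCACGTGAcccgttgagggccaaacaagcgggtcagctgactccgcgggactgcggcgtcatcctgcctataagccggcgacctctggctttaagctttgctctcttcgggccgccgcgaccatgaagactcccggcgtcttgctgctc
Atp6v1a: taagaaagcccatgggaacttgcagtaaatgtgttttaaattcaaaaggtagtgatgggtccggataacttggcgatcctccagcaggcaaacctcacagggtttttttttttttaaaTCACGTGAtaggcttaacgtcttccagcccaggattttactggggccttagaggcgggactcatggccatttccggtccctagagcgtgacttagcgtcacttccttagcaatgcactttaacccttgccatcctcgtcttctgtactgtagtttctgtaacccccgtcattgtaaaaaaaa
Lamp1: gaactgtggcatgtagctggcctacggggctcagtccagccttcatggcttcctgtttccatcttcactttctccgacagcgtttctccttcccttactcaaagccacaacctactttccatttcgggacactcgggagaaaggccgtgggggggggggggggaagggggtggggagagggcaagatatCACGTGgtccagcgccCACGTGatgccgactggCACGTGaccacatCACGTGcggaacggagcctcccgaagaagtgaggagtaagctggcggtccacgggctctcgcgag
Lipa: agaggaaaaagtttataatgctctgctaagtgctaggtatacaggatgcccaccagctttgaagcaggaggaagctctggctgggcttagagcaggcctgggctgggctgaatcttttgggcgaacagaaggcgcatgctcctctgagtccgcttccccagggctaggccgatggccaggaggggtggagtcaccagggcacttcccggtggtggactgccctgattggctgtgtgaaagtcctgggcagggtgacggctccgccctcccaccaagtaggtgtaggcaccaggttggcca
Lipa, without the element in this window, was at −1.25, and Ctsd, with it, at −1.09.

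Genes of cholesterol handling and lipid uptake followed in part. Of 16 genes of cholesterol efflux and its nuclear receptor LXR, 9 fell and none rose, at a median of −0.28 that became −0.12 with library totals only. The share lower was near the 52.3% of all genes between 100 and 1000 CPM. Nceh1, a cholesteryl ester hydrolase of macrophages, had 76.0 and 83.7 CPM in CKO vehicle and 179 and 182 CPM in fl/fl vehicle (−1.18 ± 0.07, adjusted p = 5.57e-06). Abcg1, an exporter of cholesterol, had 84.4 and 82.4 CPM in CKO vehicle and 139 and 146 CPM in fl/fl vehicle (−0.77 ± 0.08). Of 15 scavenger receptor and lipid uptake genes, 10 fell and 1 rose. Their share lower lay between that 52.3% and the 69.7% of genes from 1000 CPM. Cd36, the fatty acid and oxidized LDL receptor, had 1427 and 1384 CPM in CKO vehicle and 2606 and 2519.8 CPM in fl/fl vehicle (−0.87 ± 0.04, adjusted p = 1.13e-06). Msr1, scavenger receptor A, had 57.5 and 53.9 CPM in CKO vehicle and 95.4 and 93.1 CPM in fl/fl vehicle (−0.76 ± 0.08).

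The extracellular matrix was lower too. Of 18 collagen genes, 15 fell and 2 rose, with a median of −0.78 and summed levels of 15973 and 16743 CPM in CKO vehicle against 29317 and 32307 CPM in fl/fl vehicle. With the GC and length trend removed, 14 fell and 4 rose, at a median of −0.42. Col1a1 had 1630.0 and 1705 CPM in CKO vehicle and 3138 and 3481 CPM in fl/fl vehicle (−0.99 ± 0.06, adjusted p = 4.42e-06; −0.52 with the trend removed). Col8a1 had 69.1 and 62.8 CPM in CKO vehicle and 151 and 153 CPM in fl/fl vehicle (−1.20 ± 0.08). Of 22 other matrix and fibrosis genes, 14 fell and 3 rose at a median of −0.56, which became 13 lower, 1 higher and −0.32 with the trend removed. The share of 14 in 22 lay between the 52.3% of all genes at 100 to 1000 CPM and the 69.7% from 1000 CPM. Postn, a matricellular protein of activated fibroblasts, had 463 and 446 CPM in CKO vehicle and 970.3 and 958 CPM in fl/fl vehicle (−1.08 ± 0.05). Timp1, an inhibitor of matrix proteases, had 25.1 and 22.9 CPM in CKO vehicle and 76.3 and 58.9 CPM in fl/fl vehicle (−1.49 ± 0.13). Of 19 matrix proteases and inhibitors, 14 fell and 1 rose, among them the gelatinase Mmp2 with 215 and 214 CPM in CKO vehicle and 471 and 472 CPM in fl/fl vehicle (−1.13 ± 0.05).

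Markers of vessels and of mast cells were lower in the same libraries. Of 18 endothelial genes, 15 fell and none rose, with a median of −0.47 (−0.30 with library totals only). Cdh5, the cadherin of endothelial junctions, had 386 and 414 CPM in CKO vehicle and 608 and 638 CPM in fl/fl vehicle (−0.64 ± 0.06, adjusted p = 4.92e-05), and Pecam1 was at −0.49 ± 0.05. Of 11 mast cell genes, 6 fell and none rose, with a median of −0.74 (−1.13 with the GC and length trend removed). The share lower among all genes was 21.5% at 10 to 100 CPM and 52.3% at 100 to 1000 CPM. Cpa3, the mast cell carboxypeptidase, had 66.0 and 60.4 CPM in CKO vehicle and 122 and 111 CPM in fl/fl vehicle (−0.88 ± 0.09). The part that a change in the mix of cells has in the macrophage and lysosome results was not tested.

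Among inflammatory genes, chemokines were lower more often than higher and cytokines went both ways. Of 20 chemokines, 10 fell and 1 rose, with a median of −0.36. That share of falls was near the 52.3% lower among all genes between 100 and 1000 CPM. With the GC and length trend removed 18 fell and 1 rose, at a median of −1.18, and with library totals only the median was −0.19. The one that rose was Cxcl10, an interferon-induced attractant of T cells, with 195 and 191 CPM in CKO vehicle and 103 and 91.6 CPM in fl/fl vehicle (0.99 ± 0.08, adjusted p = 2.18e-05; 0.26 with the trend removed; exons overlap Art3). Ccl8, a ligand for monocytes, had 72.9 and 66.2 CPM in CKO vehicle and 159 and 133 CPM in fl/fl vehicle (−1.06 ± 0.10). Of 18 cytokines and mediators, 5 rose and 4 fell, at a median of 0.05. Csf3, which encodes G-CSF, rose with 6.96 and 6.21 CPM in CKO vehicle against 1.70 and 1.59 CPM in fl/fl vehicle (2.00 ± 0.18, adjusted p = 5.45e-05). Il10, the anti-inflammatory cytokine, fell with 163 and 152 CPM in CKO vehicle against 326 and 288 CPM in fl/fl vehicle (−0.97 ± 0.08), and Nos2 fell with it (−0.98 ± 0.12). Il1b was higher by 0.43 ± 0.08 (adjusted p = 0.00334), but lay at −0.45 with the GC and length trend removed, where the list had 3 members higher and 10 lower at a median of −0.45. Exons of Il1b overlap Il1bos. Without CKO vehicle replicate 1, 3 cytokines rose and 5 fell.

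Complement and antigen presentation genes were lower, at shares near those of other abundant genes. Of 11 genes of the MHC class II pathway, 6 fell and none rose, near the shares of 52.3 and 69.7% given above for all genes between 100 and 1000 CPM and from 1000 CPM. With library totals only or with only the compared groups 4 fell, and once GC and length trends were removed 8 fell. The list holds H2-Aa with 1698 and 1668 CPM in CKO vehicle and 2377 and 2107 CPM in fl/fl vehicle (−0.41 ± 0.07, adjusted p = 0.00217). Of 21 complement and coagulation genes, 15 fell and 1 rose, with 9 lower and 3 higher under library totals only, 10 lower with only the compared groups and 17 lower and none higher once GC and length trends were removed. The share of 15 in 21 was near the 69.7% of genes from 1000 CPM and above the 52.3% between 100 and 1000 CPM. C3ar1, the receptor of the C3a fragment, had 177 and 181 CPM in CKO vehicle and 302 and 279.8 CPM in fl/fl vehicle (−0.70 ± 0.06), and C3 was at −0.43 ± 0.07. The member that rose was Cfd, the adipocyte product adipsin, at 0.89 ± 0.11, which did not pass with the GC and length trend removed (0.27, adjusted p = 0.0832).

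Enzymes that make oxidized fatty acids and eicosanoids, the class of lipids that includes reported Gpr132 ligands, went both ways. Of 18 listed, 17 were tested and 4 were higher, a share near the 24.4% of all genes, and 4 lower. The lower count was 2 with library totals only and 7 once GC and length trends were removed. Alox15, a lipoxygenase of arachidonate and linoleate, had 41.9 and 43.5 CPM in CKO vehicle and 24.8 and 20.4 CPM in fl/fl vehicle (0.92 ± 0.11, adjusted p = 0.000322; 0.46 with the trend removed). Ptgds, the lipocalin-type prostaglandin D synthase, had 73.3 and 71.7 CPM in CKO vehicle and 17.5 and 16.3 CPM in fl/fl vehicle (2.10 ± 0.08, adjusted p = 3.43e-07). Hpgds, the haematopoietic enzyme for the same product, had 47.2 and 46.1 CPM in CKO vehicle and 102 and 97.4 CPM in fl/fl vehicle (−1.10 ± 0.09, adjusted p = 4.08e-05). The pair of prostaglandin D synthases thus moved in opposite directions, each with groups that did not overlap. Alox5 had 53.6 and 58.1 CPM in CKO vehicle and 56.7 and 56.1 CPM in fl/fl vehicle, a difference of −0.01 ± 0.11.

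Among genes downstream of G protein-coupled receptors, Rgs1, a GTPase activator that dampens chemokine receptors, had 149.9 and 149 CPM in CKO vehicle and 449 and 408 CPM in fl/fl vehicle (−1.52 ± 0.07, adjusted p = 9.17e-07). Gnai2, the main inhibitory G protein subunit of myeloid cells, had 569 and 564 CPM in CKO vehicle and 789.7 and 750.0 CPM in fl/fl vehicle (−0.44 ± 0.05). Of the 21 genes of this list, 12 fell and 2 rose, while 4 fell with library totals only and 7 without CKO vehicle replicate 1. The share of 12 in 21 was near the 52.3% lower among all genes between 100 and 1000 CPM. Immediate early genes, which respond within minutes to stimulation or handling, were lower in 13 of 19 cases and higher in 2, with a median of −0.41 (−0.24 with library totals only). Their share lower was near the 69.7% of genes from 1000 CPM. Fos had 2634 and 2589 CPM in CKO vehicle and 3993 and 3732 CPM in fl/fl vehicle (−0.56 ± 0.04), and Atf3 was at −0.60 ± 0.05. Of 13 heat shock genes, 5 rose and none fell at a median of 0.20, with Hsp90aa1 at 483 and 453 CPM in CKO vehicle and 273 and 255 CPM in fl/fl vehicle (0.83 ± 0.08), while with the GC and length trend removed 5 rose and 6 fell at a median of −0.17, and with library totals only 8 rose. Fkbp5, a glucocorticoid-induced chaperone, had 251 and 239.8 CPM in CKO vehicle and 88.5 and 91.5 CPM in fl/fl vehicle (1.45 ± 0.07, adjusted p = 1.62e-06). Sgk1, another glucocorticoid target, moved the other way (−0.51 ± 0.06), and 3 of the 13 genes of that list rose and 2 fell, with 7 higher under library totals only and 6 lower with the GC and length trend removed.

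Adipocyte genes were split. Of 20, 9 rose and 6 fell. With the GC and length trend removed 5 rose and 7 fell, and without CKO vehicle replicate 2, 5 rose and 5 fell. Adipoq, the adipocyte hormone adiponectin, had 11.9 and 10.8 CPM in CKO vehicle and 8.70 and 5.74 CPM in fl/fl vehicle. Its change of 0.66 ± 0.20 passed narrowly (adjusted p = 0.0324), did not pass without CKO vehicle replicate 1 (0.58), CKO vehicle replicate 2 (0.73) or fl/fl vehicle replicate 2 (0.39), and lay at −0.33 with the GC and length trend removed. Car3, an abundant adipocyte carbonic anhydrase, had 131 and 117 CPM in CKO vehicle and 68.6 and 61.6 CPM in fl/fl vehicle (0.93 ± 0.09). Fabp4, shared by adipocytes and macrophages, had 1396 and 1244 CPM in CKO vehicle and 2191 and 1980.1 CPM in fl/fl vehicle (−0.66 ± 0.07). Fatty acid and triglyceride synthesis rose on balance, 9 of 20 genes higher and 1 lower, with a median of 0.44. Dgat2, which adds the last fatty acid to triglyceride, had 37.9 and 40.8 CPM in CKO vehicle and 17.1 and 14.5 CPM in fl/fl vehicle (1.32 ± 0.11, adjusted p = 4.38e-05), and Scd1, the desaturase, was at 0.34 ± 0.05. Of 13 mitochondrially encoded genes, 8 rose, none fell and the median was 0.30, but with the GC and length trend removed 12 fell at a median of −0.70. Without CKO vehicle replicate 1, 5 rose, and without fl/fl vehicle replicate 1, 13 rose.

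Germ cell genes of the testis were higher in CKO vehicle. All 20 genes of the spermatid list rose at a median of 5.04, and their summed level was 1948 and 1862 CPM in CKO vehicle and 117 and 114 CPM in fl/fl vehicle. Prm1, the protamine that packs sperm DNA, had 143 and 139 CPM in CKO vehicle and 2.99 and 2.60 CPM in fl/fl vehicle (5.66 ± 0.10, adjusted p = 1.73e-08). Ldhc, the testis lactate dehydrogenase, had 303 and 286 CPM in CKO vehicle and 4.80 and 4.49 CPM in fl/fl vehicle (5.99 ± 0.08). The other stages followed. Of 19 genes of spermatocytes and meiosis, 16 rose and none fell, and of 11 listed spermatogonial genes 10 were tested and 7 rose. Boll, a germ cell RNA-binding protein, had 12.3 and 14.3 CPM in CKO vehicle and no count in either fl/fl vehicle library, at least 419-fold higher if fl/fl vehicle is set to a floor of 3 counts for the group. Ddx4, the germ cell helicase VASA, had 75.6 and 77.8 CPM in CKO vehicle and 1.27 and 1.06 CPM in fl/fl vehicle (6.04 ± 0.11).

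The piRNA pathway, which silences transposons in germ cells, rose in 14 of 15 genes, with a median of 5.07. Mael had 119.8 and 108 CPM in CKO vehicle and 1.77 and 1.69 CPM in fl/fl vehicle (6.04 ± 0.10), and Tdrd6 had 112 and 112 CPM in CKO vehicle and 1.68 and 1.77 CPM in fl/fl vehicle (6.02 ± 0.09). Genes of the sperm flagellum and of motile cilia rose in 20 of 20 cases, with a median of 4.48, among them Rsph1 with 121 and 114 CPM in CKO vehicle and 3.56 and 3.09 CPM in fl/fl vehicle (5.14 ± 0.10). Somatic cells of the testis were less uniform. Of 11 Leydig and steroid synthesis genes, 9 rose and 1 fell. Cyp17a1, which makes androgen precursors, averaged 29.0 ± 1.37 CPM in CKO vehicle and 1.27 ± 0.0671 CPM in fl/fl vehicle (SD, n = 2 each), a log2 fold change of 4.51 ± 0.13 (SE), and Star, which delivers cholesterol to mitochondria, had 23.3 and 24.7 CPM in CKO vehicle and 16.0 and 16.0 CPM in fl/fl vehicle (0.59 ± 0.09). Of 12 Sertoli genes, 11 were tested and 6 rose. Sox9 had 16.2 and 14.5 CPM in CKO vehicle and 9.44 and 10.6 CPM in fl/fl vehicle (0.61 ± 0.12), and Amh stayed low in both, with 0.571 and 0.249 CPM in CKO vehicle and 0.362 and 0.157 CPM in fl/fl vehicle.

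**Figure D4:**
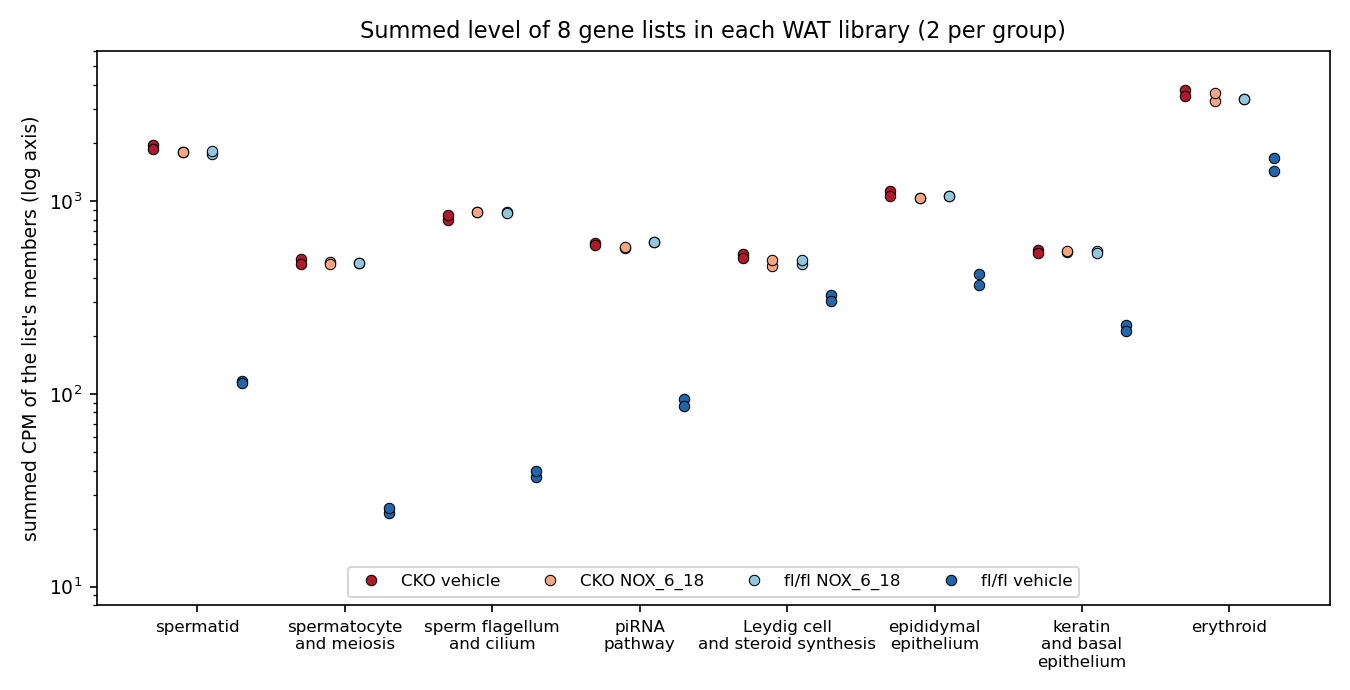
Summed CPM of 8 gene lists, y axis on a log scale, in each of the 8 WAT libraries, with the groups of each list from CKO vehicle on the left to fl/fl vehicle on the right. For each list both fl/fl vehicle libraries lie below the 6 others; for spermatids 117 and 114 CPM stand against 1749 to 1948 CPM.

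Epididymal and other epithelial genes rose as well, at lower medians than the spermatid genes. Of 14 epididymal genes, 14 rose, with a median of 2.95 (2.94 with the 4 genes at 0 in fl/fl vehicle set to their bound), and the sums were 1129.6 and 1061 CPM in CKO vehicle and 417 and 368 CPM in fl/fl vehicle. Crisp1, a secreted protein that coats sperm in the epididymis, had 434 and 403 CPM in CKO vehicle and 156 and 131 CPM in fl/fl vehicle (1.54 ± 0.08, adjusted p = 3e-06; 0.48 with the GC and length trend removed). Lcn9, an epididymal lipocalin, had 7.04 and 6.84 CPM in CKO vehicle and no count in fl/fl vehicle, at least 219.6-fold higher. Of 15 keratin and basal epithelium genes, 15 rose, with a median of 1.37, among them Trp63, the basal cell factor p63, with 30.2 and 32.0 CPM in CKO vehicle and 8.79 and 8.48 CPM in fl/fl vehicle (1.85 ± 0.09). Blood cells moved as well. Of 12 erythroid genes, 11 were tested and 7 rose at a median of 1.29, which was 0.67 with the trend removed; 5 then rose with the replicate block added. Hba-a1, an alpha-globin gene whose reads may be split with its near-identical copy, had 1242 and 1103 CPM in CKO vehicle and 514 and 447 CPM in fl/fl vehicle (1.29 ± 0.08). Of 13 neutrophil genes, 11 were tested and 6 rose at a median of 1.70, while with the trend removed 4 rose at 0.76 and with the block added 3 rose at 0.79. Among them was Ltf at 17.3 and 16.9 CPM in CKO vehicle and 2.94 and 3.19 CPM in fl/fl vehicle (2.48 ± 0.13). Hepatocyte genes rose in 11 of 21 tested cases and fell in 1, of 22 listed, and rose in 7 with the GC and length trend removed. Over all genes 24.4% were called higher, and 55.9% of those under 0.1 CPM in fl/fl vehicle. Alb had 30.7 and 28.9 CPM in CKO vehicle and 5.50 and 4.94 CPM in fl/fl vehicle (2.51 ± 0.13). The summed hepatocyte level went the other way, at 814 and 804 CPM in CKO vehicle and 920.0 and 976 CPM in fl/fl vehicle. The lists of this paragraph moved with every fall given above, and their part in those results was not tested.

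The cAMP response element TGACGTCA, bound by the spermatid activator CREM, was searched in the spermatid promoters. Of 20 genes, 16 had a promoter in the table and 0 held it, beside 2.03% of all genes, and this says only that these letters are not in the windows. Variant forms of the element were not searched. Prm1, the leading gene of the list, is shown from chr16:10796774-10797073 (minus strand).
Prm1: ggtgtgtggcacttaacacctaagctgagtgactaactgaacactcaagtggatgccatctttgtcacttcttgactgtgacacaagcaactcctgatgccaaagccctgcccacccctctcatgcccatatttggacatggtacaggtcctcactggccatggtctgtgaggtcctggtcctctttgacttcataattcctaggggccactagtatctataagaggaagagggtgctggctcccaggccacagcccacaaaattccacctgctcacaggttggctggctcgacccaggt

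Across all genes, 429 had no count in either fl/fl vehicle library and at least 1 CPM on average in CKO vehicle, and 4 showed the reverse. The largest rises by log2 fold change among called genes of at least 5 CPM were of this kind. Ldhal6b led, with 70.3 and 17.8 CPM in CKO vehicle (at least 1447-fold higher), but its CKO libraries differed widely, its exons overlap Gm29050 and its adjusted p was 0.325 with limma-voom. Boll was among the next, with Mdh1b (at least 506-fold higher), Tmem30c (at least 391-fold) and Thegl (at least 355-fold). Exons of Tmem30c overlap Gm26800. Among the largest falls above the same level, Epo, the erythropoietin gene, had 0.0840 and 0.326 CPM in CKO vehicle and 9.83 and 11.4 CPM in fl/fl vehicle (−5.71 ± 0.77, adjusted p = 0.000665), with exons that overlap Gnb2. Mmgt2 had 1.90 and 1.72 CPM in CKO vehicle and 8.97 and 9.46 CPM in fl/fl vehicle (−2.34 ± 0.26), and the protease Mmp3 had 13.8 and 10.9 CPM in CKO vehicle and 43.0 and 40.4 CPM in fl/fl vehicle (−1.76 ± 0.16).

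The same genotypes on NOX_6_18 gave a different picture. Of 25871 genes, 9 passed (0.0348%) by edgeR's quasi-likelihood test, 4 higher (0.0155%) and 5 lower (0.0193%) in CKO, with 618 at an unadjusted p under 0.05 and 46 called by DESeq2. No member of any list was called. Gpnmb was at −0.05 there, Lipa at −0.04, Col3a1 at 0.02, Ptgds at −0.01 and Prm1 at 0.02, all with an adjusted p of 1. The genotype difference itself differed between vehicle and NOX_6_18 in 6547 genes (25.3%), 4810 with a positive (18.6%) and 1737 with a negative (6.71%) interaction. This test uses the same fl/fl vehicle libraries, so it is no separate support for the vehicle differences. Of the lipid-associated macrophage genes 19 of 20 passed this test, of the hydrolases 22 of 31, of the membrane and v-ATPase genes 20 of 26, of the collagens 15 of 18 and of the spermatid genes 20 of 20. For Gpr132 the interaction was −0.45 ± 0.32 (adjusted p = 0.357).

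**Figure D5:**
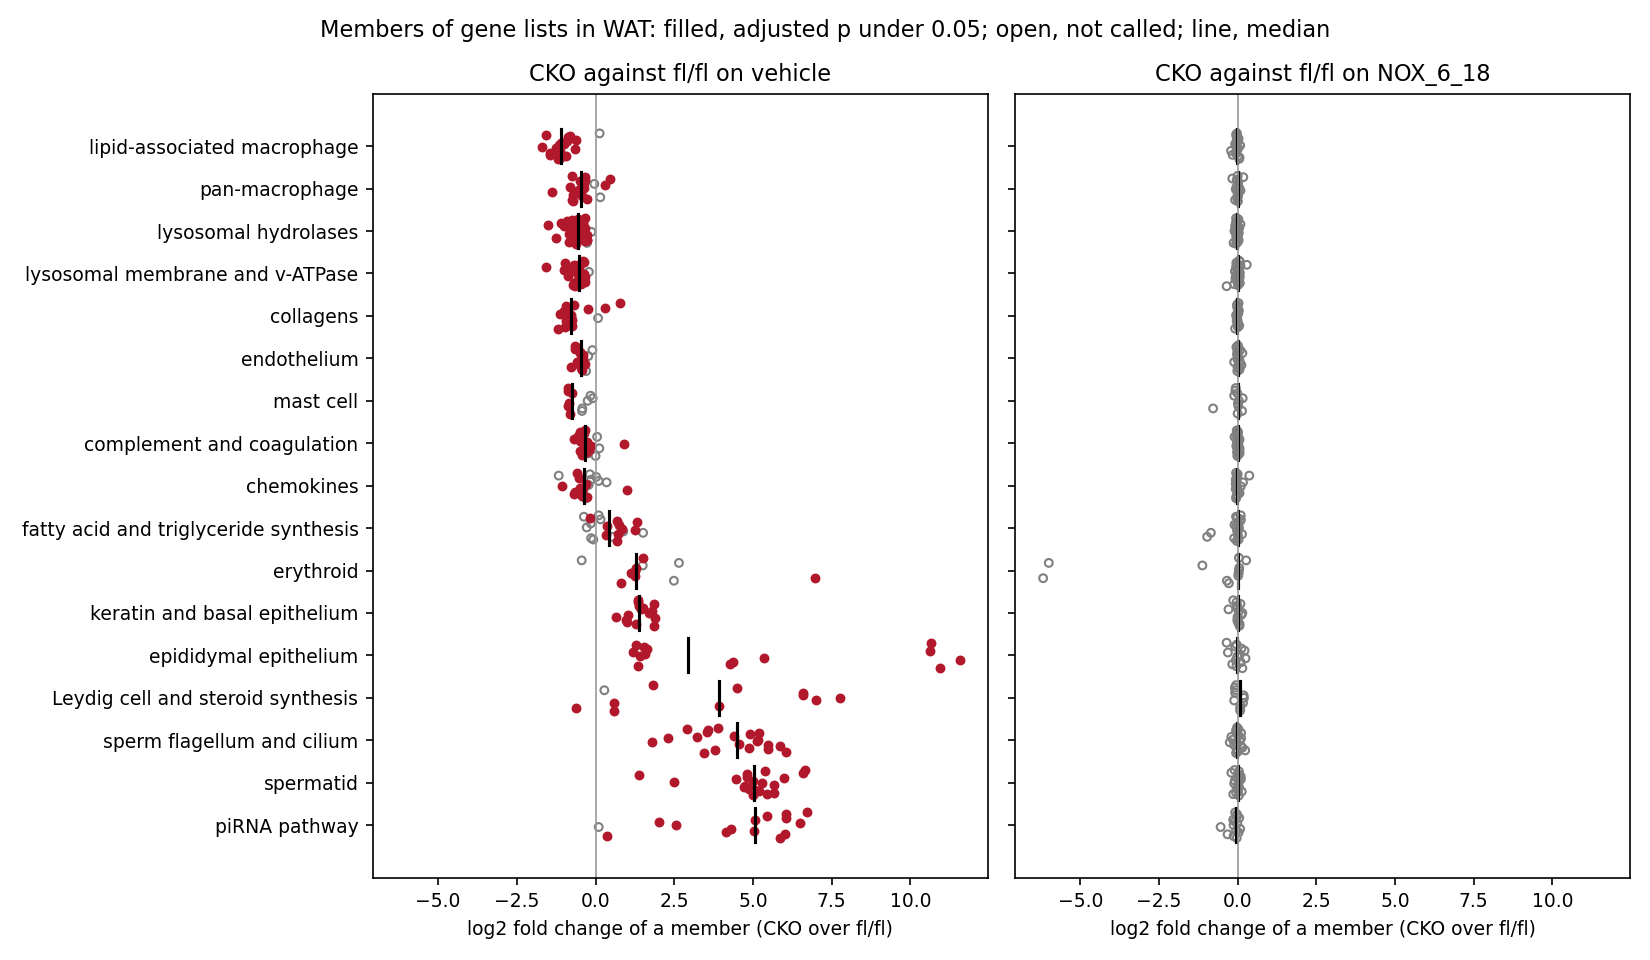
Log2 fold change of CKO over fl/fl, x axis, for the tested members of 17 gene lists in WAT on vehicle (left) and on NOX_6_18 (right): filled points are called, open points are not, and black lines are medians. Points beyond 10 come from genes with no count in one group, whose fitted values are no measured fold; on NOX_6_18 no point is filled.

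CKO vehicle was also set directly against fl/fl on NOX_6_18, groups that share neither genotype nor treatment. There 3 of 25871 genes passed (0.0116%) by edgeR's quasi-likelihood test, 2 higher (0.00773%) and 1 lower (0.00387%), with 850 at an unadjusted p under 0.05 and 36 called by DESeq2, and no list had a called member. The 3 were Gpx3, B3gnt2 and Gm28048, named because no other gene was called. Gm28048 and B3gnt2 separated the genotypes on both treatments. Gm28048 had 0.0168 and 0.0575 CPM in CKO vehicle and 56.8 and 56.4 CPM in fl/fl vehicle, and on NOX_6_18 0.0168 and 0.0171 CPM in CKO and 43.1 and 43.0 CPM in fl/fl. B3gnt2, whose exons it overlaps, averaged 42.2 ± 6.46 CPM in CKO vehicle and 10.4 ± 0.599 CPM in fl/fl vehicle (SD, n = 2 each), and on NOX_6_18 46.9 and 47.1 CPM in CKO and 6.86 and 6.28 CPM in fl/fl. Reads in shared exons cannot be assigned to one of the pair. The sum of the pair was 46.8 and 37.8 CPM in CKO vehicle and 66.8 and 67.3 CPM in fl/fl vehicle. On NOX_6_18 this sum lay closer between genotypes, at 46.9 and 47.1 CPM in CKO and 50 and 49.3 CPM in fl/fl. Gpx3, the secreted glutathione peroxidase, had 545 and 549.9 CPM in CKO vehicle and 591 and 474 CPM in fl/fl vehicle, so that on vehicle its groups overlapped (0.04 ± 0.09), while on NOX_6_18 it had 461 and 462 CPM in CKO and 210.5 and 221 CPM in fl/fl.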

How the data were processed

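Total RNA of WAT was sequenced after library preparation with a stranded kit, per the labels' protocols. The authors deposited raw read counts per gene, 1 file per library, per the file headers. HISAT, featureCounts 1.5.0, DESeq 1.8.3 and GRCm38 are named in the submitters' processing notes; no source used here gives the strand setting or annotation release, so reads of overlapping or antisense genes may be shared. Of 55421 gene identifiers, 99.7% matched a GENCODE M21 symbol.

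Groups were taken from the sample labels. Counts of the 8 WAT libraries were fitted together with edgeR 4.0.16 (R 4.3.3), with TMM scaling, filterByExpr, 1 coefficient per group and the quasi-likelihood test. All p-values were adjusted by Benjamini-Hochberg over 25871 genes, and a call needs an adjusted p under 0.05. The ± after a log2 fold change is an approximate SE. It is the size of the change divided by the square root of the test's F statistic. The code was tested on simulated data. CPM are TMM-scaled and not per length, so levels are compared within a gene. Bounds on folds use a floor of 3 counts over the group. Intervals and floors cover counting error only.

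The comparison and the gene lists were chosen with earlier results of these data known, while libraries entered groups by their labels, and lists carry no test of their own. Named genes were Gpr132, the first 2 genes of each list, up to 6 called members of each list by adjusted p, and, among called genes of at least 5 CPM whose groups do not overlap, the 12 largest rises and falls by log2 fold change and by CPM, with the 5 largest interactions each way among protein-coding genes of at least 5 CPM in a group (pseudogenes and genes with only a clone-type symbol left out); Alox5, Amh, Apoe, Tfeb and other members outside it were picked after their values were seen. Some list members count in the list totals but are not reported here by name.

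Alternatives were RLE size factors, library totals, no or a stricter filter (50 counts in 2 libraries), DESeq2 1.42.0, limma-voom (limma 3.58.1), the compared groups alone, a replicate block, GC and length trends removed, an added 2-fold requirement, and leaving out single libraries; a group left with 1 library is assumed to vary like the others. Promoters are from RefSeq, GRCm38.p6. Liver libraries were not used here.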

Additional observations from a re-analysis of the deposited data

Results flagged for a closer look

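The genotype difference on vehicle and that on NOX_6_18 were compared by an interaction term in the edgeR fit. They differed in 6547 genes, 25.3% of all genes tested. Among lists, members with a called interaction numbered 19 of 20 for lipid-associated macrophages, 22 of 31 for lysosomal hydrolases and 20 of 26 for the lysosomal membrane and v-ATPase. For collagens they numbered 15 of 18 and for endothelium 13 of 18. They numbered 15 of 15 for keratins and basal epithelium, 14 of 14 for the epididymis, 20 of 20 for spermatids and 19 of 20 for the flagellum and cilium.

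Among protein-coding genes with at least 5 CPM in a group, the largest positive estimates were those of Ldhal6b (15.27), Mdh1b (12.85), Tmem30c (12.75), Boll (12.50) and Thegl (12.26) in log2 units. Each had no count in fl/fl vehicle, so these fitted values depend on the prior count and are no measured fold. Below that level Pcdhb19 had a larger estimate, 20.96 (adjusted p = 3.11e-05), with 2.62 and 3.54 CPM in CKO vehicle, 3.01 and 3.85 CPM in fl/fl NOX_6_18 and no count in the other 4 libraries. The largest negative ones above it were those of Fam177a (−14.80), Epo (−6.73), Pttg1ip (−3.16), Zfp260 (−3.08) and Zfp180 (−3.03).

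Pttg1ip had 73.8 and 74.1 CPM in CKO vehicle, 206 and 203 CPM in CKO NOX_6_18, 73.8 and 80.2 CPM in fl/fl NOX_6_18 and 258 and 241 CPM in fl/fl vehicle. It was thus high in CKO on NOX_6_18 and in fl/fl on vehicle. Fam177a had 0 and 38.3 CPM in CKO vehicle, 38.2 and 33.3 CPM in CKO NOX_6_18, 0 and 0 CPM in fl/fl NOX_6_18 and 33.7 and 35.9 CPM in fl/fl vehicle. The CKO vehicle libraries of Fam177a therefore disagree with each other. Zfp260 had 5.41 and 4.96 CPM in CKO vehicle, 26.4 and 16.1 CPM in CKO NOX_6_18, 7.34 and 29.7 CPM in fl/fl NOX_6_18 and 43.4 and 33.3 CPM in fl/fl vehicle. Zfp180 had 23.1 and 9.21 CPM in CKO vehicle, 24.2 and 25.1 CPM in CKO NOX_6_18, 6.53 and 4.21 CPM in fl/fl NOX_6_18 and 26.7 and 31.0 CPM in fl/fl vehicle.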

How the results depend on the processing

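On vehicle, the number of genes called stayed within 1.5 times of 9529 under every alternative run except a log2 fold change of at least 1, which left 5290. Genes lower in CKO numbered 1455 with library totals only, 2053 with only the compared groups, 5784 once GC and length trends were removed, 5558 with that and the replicate block, and 261 with a log2 fold change of at least 1. Leaving out 1 library at a time gave 6972 to 8919 calls, 4987 to 5915 higher and 1985 to 3004 lower. Called list entries numbered 220 with a log2 fold change of at least 1 and 548 to 679 with 1 library left out. On NOX_6_18, DESeq2 called 46 genes (22 higher, 24 lower). The interaction had 789 negative calls with library totals only, 4078 once GC and length trends were removed, 3825 with that and the replicate block. CKO vehicle against fl/fl NOX_6_18 had 36 calls with DESeq2 (22 higher, 14 lower) and 7 with limma-voom (5 higher, 2 lower).

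Gpr132 passed with DESeq2 (−0.50), after removal of the GC and length trend (−0.76) and with the replicate block added to it (−0.79), and ranged from −0.99 to −0.14 with 1 library left out. After the same removal, without and with the block, signs turned for Lyve1 (−0.27 and −0.27), Il1b (−0.45 and −0.45), Adipoq (−0.33 and −0.32), Gpx3 (−0.45 and −0.45), Acta2 (−0.02 and −0.02), and the medians of mitochondrially encoded (−0.70 and −0.70), heat shock (−0.17 and −0.17) and cytokine genes (−0.45 and −0.46). With 1 library left out the cytokine median ran from −0.08 (without fl/fl vehicle replicate 2) to 0.12, and it was −0.06 without CKO vehicle replicate 1. The cause of these shifts was not tested.

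Replicate numbers did not pair the libraries: deviations of same-numbered libraries correlated between −0.0112 and 0.025. With the replicate block, 8950 genes passed on vehicle, 5 on NOX_6_18 (2 lower; also 5 and 2 once GC and length trends were removed) and 5972 in the interaction.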

Other observations

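Of 14 pericyte and smooth muscle genes, 12 were called, 6 higher and 6 lower, beside 36.8% of all genes. The higher ones included Actg2, a smooth muscle actin, with 39.9 and 42.1 CPM in CKO vehicle and 17.7 and 17.3 CPM in fl/fl vehicle (1.23 ± 0.08, adjusted p = 9.74e-06; 0.51 with the GC and length trend removed). Acta2, the other smooth muscle actin, was at 0.65 ± 0.08 but at −0.02 with the trend removed. The lower ones included the pericyte receptor Pdgfrb, with 195 and 212 CPM in CKO vehicle and 404 and 457 CPM in fl/fl vehicle (−1.08 ± 0.08), and Rgs5, a pericyte regulator of G protein signalling (−0.87 ± 0.05). With only the compared groups, 4 rose and 5 fell.

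Of 16 genes of adipocyte progenitors and fibroblasts, 9 fell and 1 rose, and 6 fell with library totals only. The share of 9 in 16 was near the 52.3% lower among all genes between 100 and 1000 CPM. Lum, a collagen-binding proteoglycan, had 333 and 298 CPM in CKO vehicle and 769 and 679 CPM in fl/fl vehicle (−1.20 ± 0.08). Of 7 lymphatic genes, 4 fell and 1 rose, and none rose with the trend removed. Of 13 mesothelial genes 4 rose and 2 fell, near the 24.4% higher and 12.4% lower of all genes. These counts became 7 and 1 with library totals only and 3 and 5 with the trend removed.

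Lymphocyte counts turned on the setting, and over all genes 24.4% were called higher and 12.4% lower. The T cell list had more members higher than lower, but its summed level was lower in CKO vehicle. It was 75.1 and 72.4 CPM there and 105 and 99.3 CPM in fl/fl vehicle. Of 16 T cell genes 5 rose and 1 fell, but 2 rose when any 1 of the 4 vehicle libraries was left out. Of 10 natural killer genes 1 rose and none fell, while none rose without CKO vehicle replicate 1, without CKO vehicle replicate 2 or without fl/fl vehicle replicate 1, and 3 fell with the trend removed. Of 14 B and plasma cell genes 2 rose and 2 fell, while 1 rose and 6 fell with the trend removed, and 0 and 7 with the replicate block added.

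Of 10 proton-sensing and lysolipid receptors, the class of Gpr132, 5 fell and none rose. That share lay between the 21.5% lower among all genes at 10 to 100 CPM and the 52.3% at 100 to 1000 CPM. Summed levels of the receptors were 443 and 450.3 CPM in CKO vehicle and 592 and 562 CPM in fl/fl vehicle. With the trend removed 8 fell, and 1 rose with library totals only or without fl/fl vehicle replicate 1. Of 24 Hox genes, 7 rose and 1 fell at a median of 0.25, with 4 higher when CKO vehicle replicate 1 was left out. The share of 7 in 24 was near the 24.4% of all genes called higher. With the trend removed 5 Hox genes rose and 4 fell at a median of 0.01.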
